A study of Homo sapiens with 4 samples.

Results

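The genes described here act in plasminogen activation and in coagulation at the cell surface. They were chosen by name, 9 in all, with earlier results of these data known. Among the 18417 genes with a named probe set, 8 of them were measured: PLAU, PLAT, PLAUR, SERPINE2, F3, TFPI, THBD and PROCR. SERPINB2, the remaining one, was not analysed here. Each of the 8 had 1 probe set, and its log2 intensity was read on 4 Affymetrix arrays. All RNA was from MDA-MB-231, a widely used line of human breast cancer cells that lacks the hormone receptors and HER2 amplification and has mesenchymal features. The control cells expressed a non-specific short hairpin RNA (shNS, 2 arrays), and the knockdown cells a hairpin against DBC1, now named CCAR2 (shDBC1, 2 arrays). Both kinds of cells were grown alike in serum-containing medium without further treatment. The labels call the arrays of each group biological replicates. They do not say how many hairpin sequences were used, or whether the cells were a clone or a pool, so an effect of the hairpin on other targets cannot be told apart from the loss of DBC1.

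Urokinase (PLAU) and tissue-type plasminogen activator (PLAT) are serine proteases that cleave plasminogen to plasmin, which dissolves fibrin and degrades matrix proteins. Urokinase works largely at the cell surface, where it is held by its receptor (PLAUR), and serpins such as protease nexin-1 (SERPINE2) trap the active enzyme. Tissue factor (F3) starts clotting by binding factor VII and is blocked by tissue factor pathway inhibitor (TFPI). Thrombomodulin (THBD) turns thrombin into an activator of protein C, and the endothelial protein C receptor (PROCR) presents protein C to that complex. The receptor is best known from endothelium and has also been used as a surface marker of basal-like breast cancer cells.

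CCAR2 itself had a log2 intensity of 9.62 and 9.41 on the shNS arrays and of 8.76 and 8.16 on the shDBC1 arrays, which is 48.1% of the control intensity. The difference of -1.06 (SE 0.23) had a limma adjusted p of 1 over the 13813 genes tested. All 10 listed markers of the mesenchymal-like line, VIM, CD44 and AXL among them, lay above the intensity filter (6.58, the 25th percentile of all genes). Of 12 luminal markers 2, the hormone receptor genes ESR1 and PGR, lay below it. The other 10 lay above it. They ran from KRT8, the brightest (12.48 and 12.64 in shNS), to genes nearer the filter such as CDH1 (6.93 and 8.06) and TFF1 (7.20 and 7.21). The mean level of the luminal list was 8.57 and 8.80 in shNS and 8.38 and 8.73 in shDBC1. GATA3 differed by -0.47 and, in the mesenchymal list, S100A4 by -0.64, each with both shDBC1 arrays lower. Among tested markers 7 of 10 luminal and 4 of 10 mesenchymal ones were below zero, against 47.7% of all genes tested. Of 10 endothelial markers 5 lay below the filter (VWF, TEK, TIE1, EMCN and ERG). The mean level of the endothelial list was 6.60 and 6.73 in shNS and 6.64 and 6.65 in shDBC1, and single markers differed in both directions, with KDR at 0.42, ESAM at -0.22 and PECAM1 at -0.69. PECAM1 read 8.23 on the second shNS array and 6.65 to 6.85 on the other arrays. Of 9 leukocyte and platelet markers with a value 4 lay below the filter, and their mean level was 7.24 and 7.46 in shNS and 7.25 and 7.39 in shDBC1. Of 7 fibroblast markers 4 lay below it, with mean levels of 6.25 and 6.33 in shNS and 6.21 and 6.60 in shDBC1. The part of such markers in the results was not tested. In a culture measured in bulk, fewer cells with a transcript and less of it per cell cannot be told apart.

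PROCR was the member that separated the cells: its intensity was 1.52-fold higher with the hairpin against DBC1, without passing the threshold over all genes. The other 7, which are the activators, the urokinase receptor, SERPINE2, tissue factor, its inhibitor and thrombomodulin, had overlapping arrays. No gene passed in this comparison (0 of 13813, or 0% called, at a limma adjusted p under 0.05), and 475 genes (3.44%) had an unadjusted p under 0.05. Of the members, 1 of 8 reached that unadjusted level, in the higher direction (0.869% of all genes), and 0 of 8 in the lower (2.57%). Both shDBC1 arrays lay above both shNS arrays for 1 of 8 members, against 11.6% of all genes tested, and below for 0 of 8, against 13.2%. These shares are near the background. A fold of at least 1.5 in the higher direction was measured for 1 of 8 members (0.376% of all genes) and in the lower direction for 0 of 8 (1.38%). Since the members were chosen with earlier results known, these shares describe the members and test nothing.

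**Figure D1:**
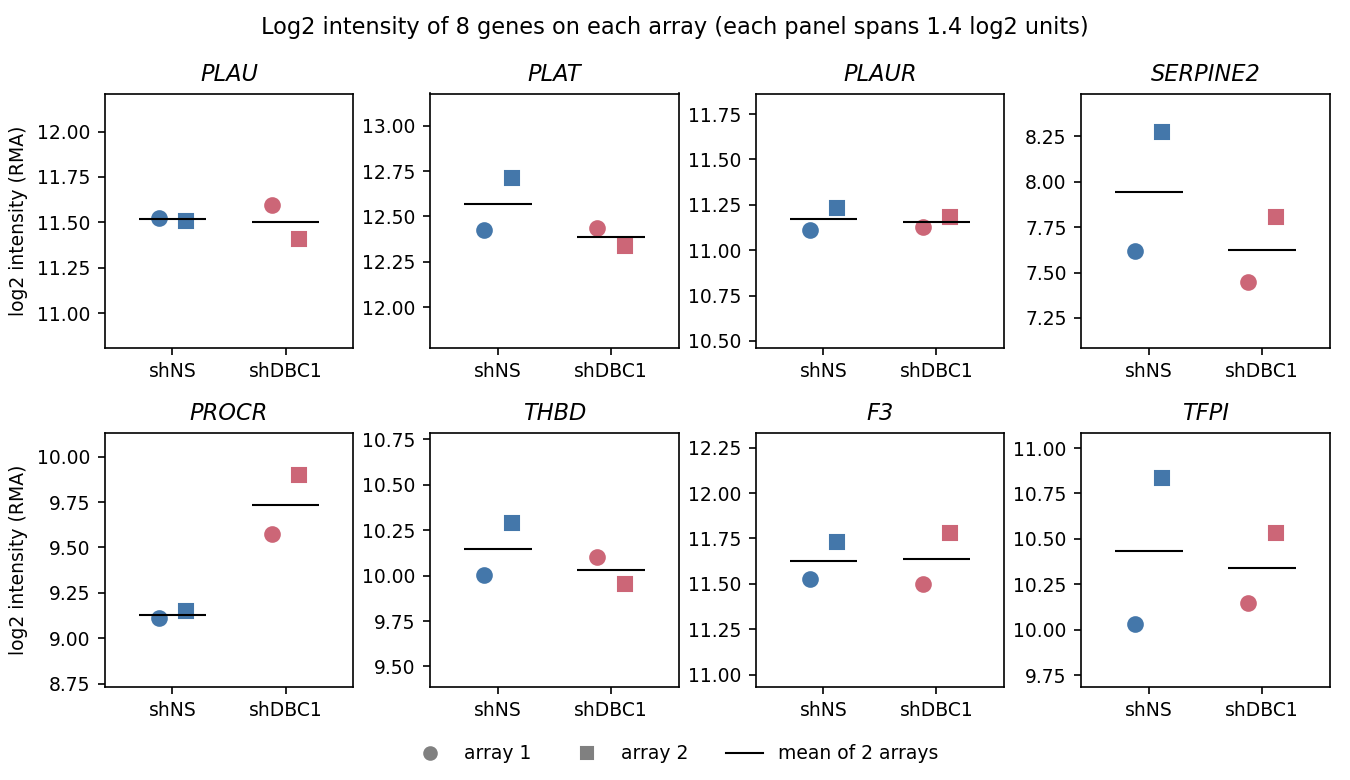
Log2 intensity (y axis) of each of the 8 genes on the 2 shNS and 2 shDBC1 arrays, with circles for arrays numbered 1, squares for arrays numbered 2 and a line for the mean of 2 arrays. Panels have different levels but the same span of 1.4 log2 units, and PROCR is the gene whose shDBC1 arrays (9.57 and 9.90) both lie above its shNS arrays (9.11 and 9.15).

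The plasminogen activators had overlapping readings in both kinds of cells. PLAU, the urokinase gene, had log2 intensities of 11.52 and 11.51 in shNS and of 11.60 and 11.41 in shDBC1. The shNS arrays fell between the shDBC1 arrays, so the groups overlapped. Its difference of -0.01 (SE 0.12, 95% interval -0.33 to 0.30) was 0.026 after repeated quantile normalisation and 0.0022 after cyclic loess, so it has no settled sign. On the linear scale the interval runs from 0.796-fold to 1.23-fold, and a change of urokinase mRNA beyond these bounds lies outside it. PLAT, whose enzyme is best known for dissolving fibrin in vessels, read 12.43 and 12.71 in shNS and 12.43 and 12.33 in shDBC1. The second shNS array was the high one and the other arrays lay close together. Its difference was -0.19 (SE 0.14, interval -0.56 to 0.19), or -0.04 without the second and -0.33 without the first shNS array. This interval runs from 0.678-fold to 1.14-fold.

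The urokinase receptor gene likewise had overlapping groups. PLAUR, which encodes a receptor anchored in the membrane by a lipid, read 11.11 and 11.23 in shNS and 11.13 and 11.18 in shDBC1. Both shDBC1 readings fell inside the range of the controls. The difference was -0.02 (SE 0.11, interval -0.31 to 0.28), which turned to 0.011 after repeated quantile normalisation. A change beyond 0.808-fold or 1.21-fold lies outside this interval.

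SERPINE2 had lower readings with the hairpin at each replicate number, with a wide error. This inhibitor of urokinase, thrombin and plasmin read 7.62 and 8.27 in shNS and 7.45 and 7.80 in shDBC1. The second shDBC1 array lay above the first shNS array, so the groups overlapped, and in each line the array numbered 2 was the higher. Its difference was -0.32 (SE 0.27, interval -1.02 to 0.38), or 0.80-fold. Between arrays of the same number it was -0.17 for number 1 and -0.47 for number 2. Without the second shNS array, which leaves the replicate numbers unbalanced, the value was 0.0074.

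Tissue factor, the starter of clotting that many invasive tumour cells carry, did not separate the groups. F3 read 11.53 and 11.73 in shNS and 11.50 and 11.78 in shDBC1, and each line again had its higher reading on the array numbered 2. The difference was 0.01 (SE 0.15, interval -0.40 to 0.42), and it was -0.09 without the first shNS array and -0.13 without the second shDBC1 array. TFPI, the secreted and surface-bound inhibitor of the tissue factor complex, read 10.03 and 10.84 in shNS and 10.15 and 10.53 in shDBC1. Both shDBC1 readings lay between the controls. The difference was -0.09 (SE 0.31, interval -0.92 to 0.73), the widest interval among the 8 genes. Without the second shNS array it was 0.31, and without the first shDBC1 array 0.098, which leave the replicate numbers unbalanced.

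The 2 receptors of the protein C pathway gave different pictures. THBD, the thrombin-binding receptor, read 10.00 and 10.29 in shNS and 10.10 and 9.96 in shDBC1. Its groups overlapped, with a difference of -0.12 (SE 0.15, interval -0.50 to 0.27), or 0.026 without the second shNS array. PROCR, which binds protein C and its activated form, read 9.11 and 9.15 in shNS and 9.57 and 9.90 in shDBC1. Both shDBC1 arrays stood above both controls, and the gap between the groups was larger than the spread within either. The control mean was 9.13 ± 0.024 and the knockdown mean 9.74 ± 0.23 (SD, n = 2). They differed by 0.61 (SE 0.15, interval 0.21 to 0.996), with a limma adjusted p of 1. Counting from the most positive, this was the 42nd highest difference of 13813, and by absolute size it ranked 214th. It was 0.46 between arrays numbered 1 and 0.75 between arrays numbered 2, and 0.44 to 0.77 when any 1 array was left out. An exact permutation test of 2 against 2 arrays cannot go below a two-sided p of 0.333. The difference between the PROCR and THBD responses was not tested.

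**Figure D2:**
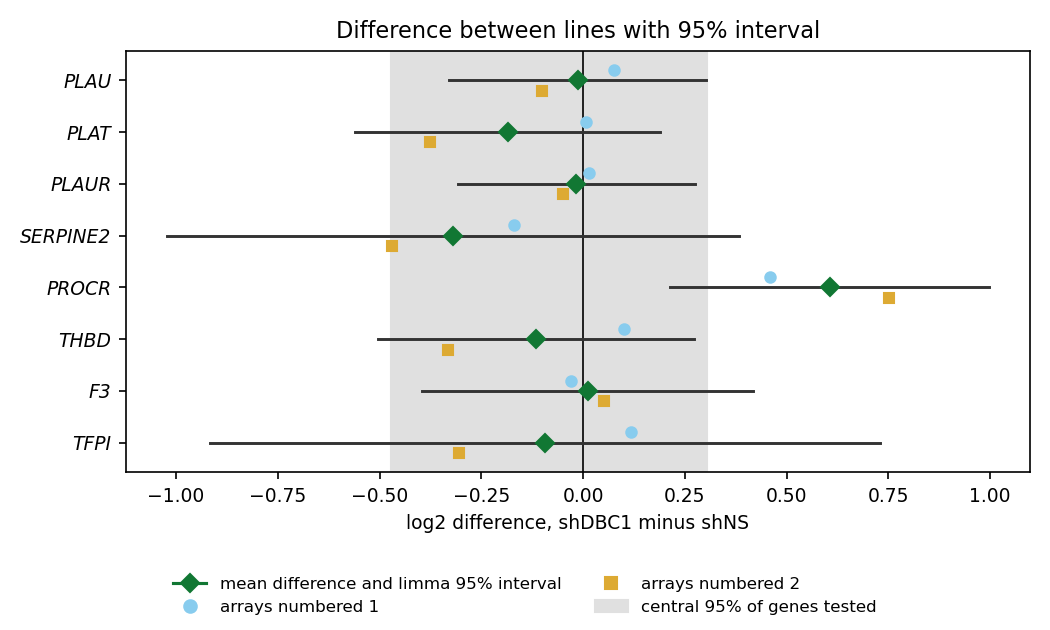
Log2 difference (x axis, shDBC1 minus shNS) of the 8 genes with limma's 95% interval (diamond and line), the difference between arrays numbered 1 (circle) and between arrays numbered 2 (square). The grey band holds the central 95% of the genes tested (-0.47 to 0.30), and PROCR at 0.61 is the member outside it.

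Across the members the sign of the difference was the same at both replicate numbers for PROCR (higher) and SERPINE2 (lower), and opposite for the other 6. The median over the 8 was -0.06, against 0.0065 for all genes tested, and 6 of 8 were below zero, against 47.7% of all genes.

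Several members differed more between arrays of one line than between lines. TFPI was 0.81 higher on the second than on the first shNS array and 0.38 higher on the second than on the first shDBC1 array, and SERPINE2 was 0.65 and 0.36 higher. F3 followed with 0.20 and 0.28 and PLAUR with 0.12 and 0.06. PROCR, at 0.03 and 0.32, was also higher on the second array but differed more between lines (0.61). The array numbered 2 was thus the higher in both lines for 5 of 8 members, against 33.3% of all genes tested, and by at least 0.3 in both for 2 of 8, against 9.17%. It was the lower in both lines for PLAU alone among the 8, by 0.01 and 0.19 (34.6% of all genes). PLAT and THBD went up by 0.28 in shNS and down by 0.10 and 0.15 in shDBC1. The labels do not say what arrays of the same number share.

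**Figure D3:**
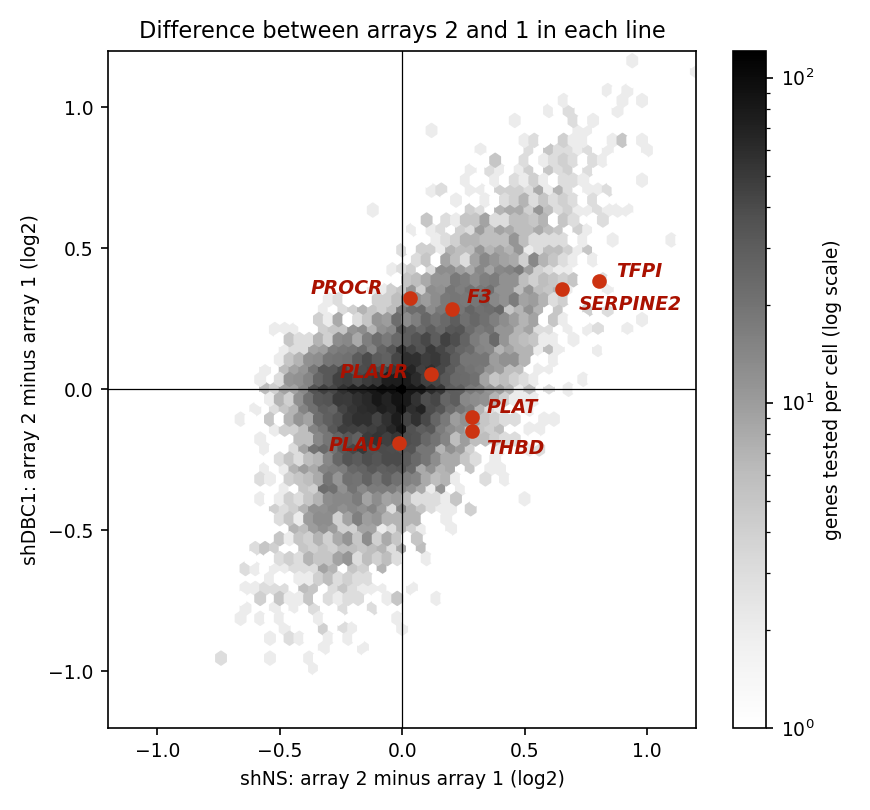
Array 2 minus array 1 on the log2 scale in shNS (x axis) and in shDBC1 (y axis), with all genes tested as shaded cells (log colour scale; 112 genes have a value beyond 1.2 on either axis and are not drawn) and the 8 genes as red points. TFPI (0.81 and 0.38) and SERPINE2 (0.65 and 0.36) lie far out in the upper right, where both lines read higher on the array numbered 2.

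The promoter windows of PROCR, F3 and TFPI are shown because PROCR was the member whose groups separated, F3 had the difference nearest to 0, and TFPI had the largest gap between replicate arrays. Each runs 5′ to 3′ on the gene's strand, from 250 bases before to 50 bases after the start of the RefSeq gene in GRCh38.p14. PROCR lies at chr20:35171822-35172121 on the plus strand, F3 at chr1:94541710-94542009 on the minus strand and TFPI at chr2:187554386-187554685 on the minus strand. Capitals mark matches to 5 sets of letters searched on both strands: AP-1 (TGANTCA), the GC box (GGGCGG), the ETS core (CCGGAA), the TATA box (TATAAA) and an NF-kB-like run (GGGNNTTCC).
PROCR: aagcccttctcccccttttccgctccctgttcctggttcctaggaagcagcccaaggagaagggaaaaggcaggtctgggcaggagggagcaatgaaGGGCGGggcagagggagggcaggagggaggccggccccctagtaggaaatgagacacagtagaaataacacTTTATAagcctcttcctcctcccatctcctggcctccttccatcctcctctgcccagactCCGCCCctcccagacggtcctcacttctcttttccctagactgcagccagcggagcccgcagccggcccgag
F3: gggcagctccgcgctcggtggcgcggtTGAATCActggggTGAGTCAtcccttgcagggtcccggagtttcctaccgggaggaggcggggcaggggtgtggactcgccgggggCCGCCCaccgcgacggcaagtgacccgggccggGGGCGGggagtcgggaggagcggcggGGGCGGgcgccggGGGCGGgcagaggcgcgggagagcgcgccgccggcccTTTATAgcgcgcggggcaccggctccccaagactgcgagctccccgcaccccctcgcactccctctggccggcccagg
TFPI: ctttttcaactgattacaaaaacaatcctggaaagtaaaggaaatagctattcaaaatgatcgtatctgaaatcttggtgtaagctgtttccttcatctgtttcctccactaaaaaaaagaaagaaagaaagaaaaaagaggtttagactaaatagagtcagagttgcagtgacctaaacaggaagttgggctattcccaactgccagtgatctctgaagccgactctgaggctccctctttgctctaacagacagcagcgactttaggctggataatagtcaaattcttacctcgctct
The PROCR window holds 2 GC boxes and a TATA box read on the opposite strand, which begins 82 bases before the start. The F3 window holds 2 AP-1 matches, which begin 223 and 210 bases before the start, with 4 GC boxes and a TATA box on the opposite strand that begins 28 bases before it. The TFPI window holds none of the 5. It is also poor in G and C, at 39.3%, against 61.0% for PROCR and 77.3% for F3 and a median of 58.7% over all windows.

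RefSeq windows were read for 6 of the 8 genes, 8 windows in all, since PLAU and SERPINE2 have 2 each. PLAT and THBD had no window in the RefSeq set. Separately, chromosome 8 was left out of the members' windows, while the windows of all genes kept it. An AP-1 match was found in 2 of the 8 windows (F3 and PLAUR), against 7.71% of all 35116 windows of that length. GC boxes were found in 5 of 8, against 45.0%, and TATA boxes in 2 of 8, against 11.5%. ETS core and NF-kB-like letters were found in 0 of 8, against 17.2% and 6.58%. No matched run overlapped another in the printed windows. A match describes letters and not binding, and no match says only that these letters are not in this window.

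Genes outside the members whose arrays were most like PROCR were GADD45A, MYRF and OXTR. Likeness was the Euclidean distance between log2 values centred on each gene's mean over 4 arrays, and was 0.11, 0.11 and 0.12. GADD45A, a stress-induced growth arrest gene, read 9.01 and 9.06 in shNS and 9.42 and 9.67 in shDBC1. The transcription factor gene MYRF differed by 0.54 and the oxytocin receptor gene OXTR by 0.51. With 4 arrays this is a description of shape only.

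Other genes of the plasminogen system had small differences, and 0 of 18 tested reached an unadjusted p under 0.05 in limma. Of these 18 genes 12 were below zero, the median was -0.06, and 1 had both shDBC1 arrays below both controls, against 13.2% of all genes tested. That gene was ANXA2, part of a surface complex that binds plasminogen and its tissue-type activator, at 12.45 and 12.41 in shNS and 12.25 and 12.23 in shDBC1 (difference -0.19, SE 0.10). LRPAP1, the chaperone of the receptors that clear serpin-bound urokinase, differed by -0.19 (SE 0.15). VTN, the matrix ligand shared by the urokinase receptor and integrins, differed by -0.27 (SE 0.23), and by -0.05 when the second shNS array was left out or -0.06 when the first shDBC1 array was. The membrane protease gene ST14 differed by 0.17 (SE 0.16), and by -0.0048 without the second shDBC1 array. The plasminogen gene PLG itself lay below the filter on all arrays (6.11 and 6.22 in shNS, 6.13 and 6.16 in shDBC1).

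Among 15 tested genes of the clotting cascade and tissue factor list, 6 were below zero and the median was 0.066. XKR8 was the 1 gene under an unadjusted p of 0.05, in the lower direction (2.57% of all genes tested). It encodes a scramblase that exposes phosphatidylserine, the lipid on which clotting complexes assemble, during apoptosis. It read 9.09 and 9.05 in shNS and 8.38 and 8.49 in shDBC1, so both shDBC1 arrays were lower, by 1.56-fold (difference -0.64, SE 0.11, limma adjusted p 1). GGCX, the carboxylase that matures vitamin K-dependent clotting factors, differed by -0.37 (SE 0.24), and by -0.08 without the second and -0.65 without the first shNS array. ANXA5, a phosphatidylserine-binding protein gene, differed by -0.22 (SE 0.15). F7, which encodes the partner of tissue factor, read 7.38 and 7.21 in shNS and 7.39 and 7.53 in shDBC1 (difference 0.17, SE 0.13). This difference was 0.01 between arrays numbered 1 and 0.32 between those numbered 2.

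In the protein C and antithrombin list 6 genes were tested, 3 on each side of zero, with a median of -0.09. Both shDBC1 arrays lay below both controls for 3 of them (13.2% of all genes tested) and above for 1 (11.6%). C4BPB alone reached an unadjusted p under 0.05 in limma, in the lower direction (2.57% of all genes). C4BPB, the chain of C4b-binding protein that captures protein S, read 8.27 and 7.88 in shNS and 7.62 and 7.49 in shDBC1 (difference -0.52, SE 0.17). Without the first shNS array this became -0.32. HS3ST1, an enzyme that makes antithrombin-binding heparan sulfate, differed by -0.27 (SE 0.13), the antitrypsin gene SERPINA1 by -0.20 (SE 0.11) and the ectonucleotidase gene NT5E by 0.15 (SE 0.11). PROS1, which encodes protein S, the cofactor of activated protein C, was singled out after its values were seen. It read 8.61 and 9.92 in shNS and 9.20 and 10.60 in shDBC1, so the arrays numbered 2 were far higher in both lines and the groups overlapped. Between arrays of the same number PROS1 was higher in shDBC1 by 0.58 and 0.69. Its difference of 0.63 had an SE of 0.64, and it was -0.02 without the first shNS array and -0.07 without the second shDBC1 array, which leave the numbers unbalanced. The protein C gene PROC lay below the filter.

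Partners of the urokinase receptor held the widest single difference of these lists. FPR1, a formyl peptide receptor that cleaved urokinase receptor can engage, read 8.28 and 9.26 in shNS and 7.40 and 7.46 in shDBC1. Both shDBC1 arrays lay below both controls, which themselves differed by 0.98. The intensity was 2.52-fold lower (difference -1.33, SE 0.34, interval -2.23 to -0.44, limma adjusted p 1), and the difference was -0.84 without the second shNS array. CAV1, the caveolin gene, read 13.04 and 13.08 in shNS and 12.81 and 12.60 in shDBC1 (difference -0.35, SE 0.12), with both shDBC1 arrays lower. The integrin genes ITGAV and ITGA3 differed by 0.23 (SE 0.17) and 0.15 (SE 0.14). ITGB3, the vitronectin receptor chain, was again singled out after its values were seen: it differed by 0.48 between arrays numbered 1 and 0.43 between those numbered 2, with a pooled difference of 0.45 (SE 0.55). That difference was -0.14 without the first shNS array and -0.11 without the second shDBC1 array. Of the 13 genes tested 6 were below zero, with a median of 0.0063, and 2 reached an unadjusted p under 0.05, both lower, against 2.57% of all genes tested in that direction.

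Regulators known for the promoters of these genes differed little. Of 18 tested 14 were below zero (47.7% of all genes tested), 5 had both shDBC1 arrays below both controls (13.2% of all genes), and 0 reached an unadjusted p under 0.05 in limma, with a median of -0.06. The YAP1 gene read 11.60 and 11.60 in shNS and 11.38 and 11.37 in shDBC1 (difference -0.22, SE 0.10). ETV4, a PEA3 factor of the ETS family, differed by -0.26 (SE 0.15), and the AP-1 genes JUN and FOSL2 by -0.16 (SE 0.11) and -0.12 (SE 0.10). No gene of the 5 lists passed the adjusted threshold in limma's fit by group alone, and with a replicate block FPR1, PROS1 and XKR8 passed (limma adjusted p 0.0326, 0.0430 and 0.0446).

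**Figure D4:**
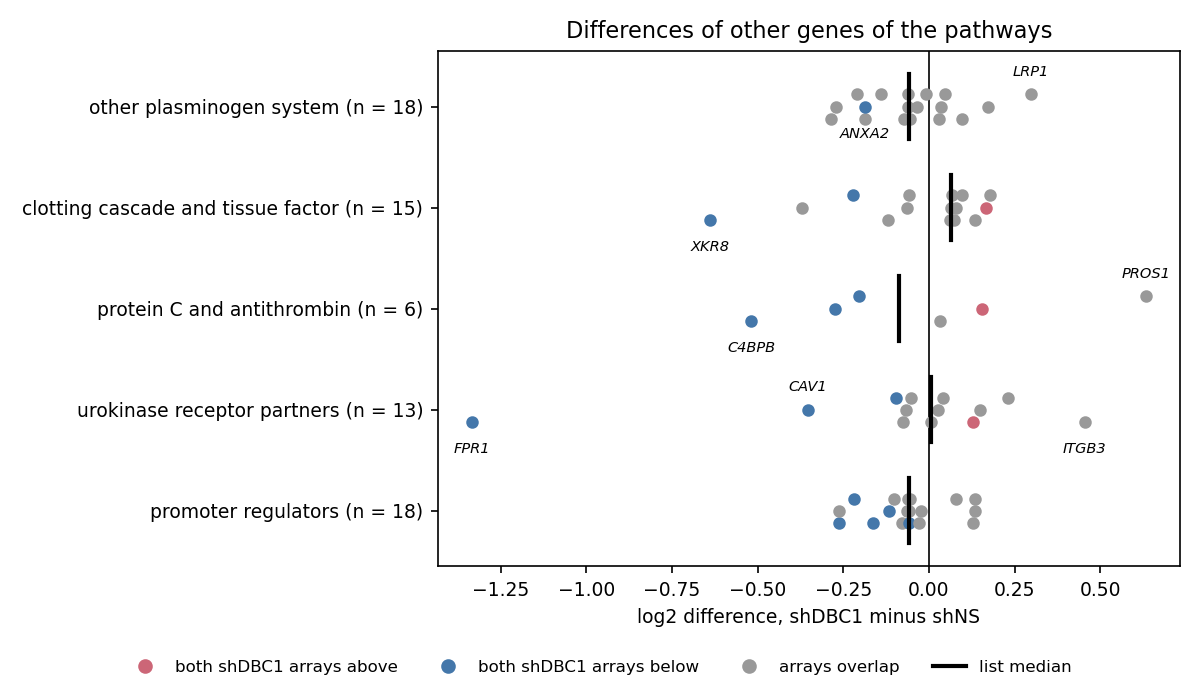
Log2 difference (x axis, shDBC1 minus shNS) of each tested gene in 5 lists of related genes, coloured by whether both shDBC1 arrays lay above, both below or overlapped the shNS arrays, with the list median as a black bar. Medians lie between -0.09 and 0.066, and FPR1 at -1.33 is the point farthest from zero.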

How the data were processed

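The values are RMA log2 intensities, 1 per probe set and array, as deposited by the authors, who used GCOS and RMA per the submitters' processing notes. The log2 scale was inferred from the range of values (2.52 to 14.1) and from RMA, which compresses folds of dim genes. For other upstream steps and the build, the sources used here give nothing. Array medians ran from 7.32 to 7.40.

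Of 33297 probe sets, 19460 had 1 symbol in the platform table. The brightest represented each of 18417 genes. Genes under the 25th percentile of means (4604) were left out, and 13813 were fitted with limma 3.58.1 in R 4.3.3 (group only, two-sided, Benjamini-Hochberg over all genes tested, threshold 0.05). SE and 95% intervals come from that fit, with 2 residual and 2.60 prior degrees of freedom. The procedure was tested on simulated data with independent noise on each array. The arrays here differ from that setting, since those with the same number deviated together. With 2 arrays per group, their number limits the precision, and p-values measure only the spread between these samples.

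Members, lists and motifs were chosen with earlier results of these data known. Named genes were CCAR2, the members, up to 4 genes per list by smallest p, and the 3 genes most like the member with the smallest p. The alternatives were other filters, scalings, priors and probe set rules, a replicate block, and leaving out each array. Every fit with an array left out leaves the replicate numbers unbalanced.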

Additional observations from a re-analysis of the deposited data

How the results depend on the processing

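All alternatives were planned. Limma called 0 genes under each filter, scaling, prior, probe set rule and left-out array (0 to 0), and 113 with a replicate block (19 higher, 94 lower). Deviations from the group means of arrays with the same number had a correlation of 0.653 across genes, so same-numbered arrays deviated together. With 2 numbers and no label on what a number shares, the source of this was not tested. With the block no member passed: PROCR had a limma adjusted p of 0.0674 and SERPINE2 of 0.309. The SE with the block was 0.13 for TFPI and 0.11 for SERPINE2, against 0.31 and 0.27 by group alone. CCAR2 (0.0232), FPR1 (0.0326), PROS1 (0.0430) and XKR8 (0.0446) passed, and ITGB3 (0.0977) did not.

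A filter, prior or block cannot change a member's difference, nor can the probe set rule, since each member has 1 probe set. Only repeated quantile normalisation, median centring and cyclic loess could turn its direction. Under settings that keep all 4 arrays, 68 of 71 member values kept their direction and side of the threshold. The others were PLAU after repeated quantile normalisation (0.026) and cyclic loess (0.0022), and PLAUR after repeated quantile normalisation (0.011). The cause was not tested. With 1 array left out the differences ranged from -0.11 to 0.082 for PLAU, -0.076 to 0.043 for PLAUR, -0.33 to -0.043 for PLAT, -0.65 to 0.0074 for SERPINE2, -0.13 to 0.15 for F3, -0.50 to 0.31 for TFPI, -0.26 to 0.026 for THBD and 0.44 to 0.77 for PROCR. Among the other named genes the same fits turned the sign of ST14 (-0.0048 to 0.35), PROS1 (-0.069 to 1.34) and ITGB3 (-0.14 to 1.05). Without changing sign, LRPAP1 ranged from -0.30 to -0.075, ANXA5 from -0.34 to -0.10, F7 from 0.079 to 0.26, ITGAV from 0.036 to 0.42, ITGA3 from 0.052 to 0.25, ETV4 from -0.38 to -0.14 and JUN from -0.24 to -0.086. List medians moved by more than the SD of the medians at the 2 replicate numbers in 3 of 45 such comparisons over all arrays and in 13 of 20 with an array left out. Signal over background was not analysed here, so folds of dim genes are uncertain.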
